A study of Mus musculus with 6 samples.

Results

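Of the genes that cells use to detect and mend broken or cross-linked DNA, 33 were followed here in the mouse incisor. They were chosen by name and role, with no threshold on their values but with earlier results of these data known, from homologous recombination, the Fanconi pathway, mismatch repair and the checkpoint kinases. All 33 of 33 were found among the 25703 genes of the count table and all 33 passed the filter on low counts. RNA from the proximal end of the incisor, where stem cells and fast-dividing transit-amplifying cells renew the tooth, was sequenced in 6 libraries from C57BL/6 mice 6 weeks old. The 3 control libraries came from Arid1a fl/fl mice, which carry the floxed gene and no Cre by their labels. The 3 Arid1a cKO libraries came from Gli1-CreER;Arid1a fl/fl mice, in which tamoxifen activates Cre in cells that express Gli1. The labels give tamoxifen by intraperitoneal injection, 1.5 mg per 10 g body weight daily for 3 days at 1 month of age, for both groups. By the labels only the Arid1a cKO group carries Cre, so effects of Cre and of Arid1a loss cannot be told apart. Arid1a encodes a DNA-binding subunit of SWI/SNF, which moves nucleosomes, and the series is titled as a study of how transit-amplifying cells leave the cell cycle. Cells outside the Gli1 lineage keep an intact Arid1a, and the samples are mixtures of recombined and other cells.

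Library totals ranged from 27300932 to 37908478 estimated counts, and the members held 51 to 2033 counts in a library. Levels are given as CPM, counts scaled to library size with TMM factors, and a difference is called a rise or fall only at an adjusted p under 0.05. The targeted gene was lower in all 3 Arid1a cKO libraries: Arid1a stood at 222, 249 and 223 CPM in control and at 136, 139 and 145 CPM in Arid1a cKO (log2 fold change of -0.72 with an SE of 0.0677, edgeR adjusted p = 0.00802). None of 11 dental mesenchyme markers was below 1 CPM, and they summed to 16849 to 37325 CPM in control and 25043 to 26532 CPM in Arid1a cKO. Of these 11, Gli1 fell (log2 fold change of -0.52 with an SE of 0.0747, edgeR adjusted p = 0.0162), 0 rose, 9 estimates were below 0 and 5 genes were lower in every Arid1a cKO library. Only the Arid1a cKO group carries Gli1-CreER, so an effect of that allele on Gli1 cannot be told apart from others. Dental epithelium markers were present too, at a summed 1108 to 4502 CPM in control and 1366 to 2968 CPM in Arid1a cKO, with the highest values in control replicate 3 and Arid1a cKO replicate 1 (1 of 12 rose, Epcam, and Odam was below 1 CPM). Rows that the table types as rRNA took 0.865% to 1.05% of the counts in control and 1.89%, 7.47% and 4.12% in Arid1a cKO replicates 1 to 3. Schwann cell markers, summed, were also apart, at 108 to 206 CPM in control and 222 to 290.3 CPM in Arid1a cKO (0 of 5 past the threshold by edgeR). Brca1 and Rad54l, the members called below, kept their calls with an epithelium score as a covariate and with the rRNA rows left out. That score, the mean log2 CPM of the epithelium markers, overlapped between the groups (4.66 to 6.17 in control, 4.95 to 6.16 in Arid1a cKO). Neither setting adjusts for Schwann or other cell types. Leaving out the rRNA rows also does not adjust the other genes for whatever goes with the rRNA share. That share was higher in every Arid1a cKO library, so it cannot be told apart from genotype. Both calls were lost when any 1 library was left out, as given below. Of 6 odontoblast markers 2 fell, Nes (-0.86) and Alpl (-0.81), and 0 rose. The smooth muscle marker Myh11 (0.80, 1 of 5) and the osteocyte marker Sost (1.54, 1 of 5 bone markers tested) rose. Endothelial, leukocyte, erythroid, osteoclast and skeletal muscle lists had 0 genes past the threshold by edgeR. The part of these cell type markers in the results was not tested. Whether each library is a different animal is not stated in the labels. The p-values therefore reflect the spread among the 6 libraries, and that spread may be technical.

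Homologous recombination copies the missing sequence from the sister chromatid, so it works in cells that have replicated their DNA. Broken ends are first trimmed to single strands, BRCA1, PALB2 and BRCA2 then act on the single strand, and a group of paralogues together with the RAD54 proteins helps it to find and invade the matching duplex. The Fanconi pathway unhooks cross-links between the strands: a core complex attaches ubiquitin to FANCD2 and FANCI, and downstream steps share proteins with recombination. ATM and ATR sense breaks and stalled forks and signal through CHEK2 and CHEK1 to hold the cell cycle, while MSH6 recognises mismatches left by replication. Many of these genes are transcribed mostly in dividing cells.

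Because cell cycle genes are read through short words near their start sites, the promoters of the members were searched for 3 kinds. RefSeq windows of 250 bases before to 50 bases after the start (build GRCm38.p6) were at hand for 25 of the 33 members. The words were the E2F site (TTTCCCGC, TTTCGCGC, TTTGCCGC or TTTGGCGC), the cell cycle homology region or CHR (TTTGAA or TTTCGAA) and the CCAAT box, on both strands, and none of the words holds another. An E2F word was present in 6 of 25 (24%) members, against 542 of 12480 (4.34%) genes tested in the count fit and 704 of 27025 (2.6%) genes with a window. A CCAAT box stood in 17 of 25 (68%) members, against 5282 of 12480 (42.3%) and 11096 of 27025 (41.1%) genes. CHR words went the other way, in 2 of 25 (8%) members against 1961 of 12480 (15.7%) and 5640 of 27025 (20.9%) genes. These shares describe letters in a window, not binding. The windows of Brca1 and Rad54l, which passed the threshold below, held a CCAAT box and no E2F or CHR word. Fancg and Brca2 are shown beside them as members with an E2F word, Fancg with groups that do not overlap and Brca2 with groups that do. In the 250 bases before each start site, 5′ to 3′ along the gene's strand, capitals mark the words. Rad54l has 2 windows that lie 1 base apart, of which one is shown.

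Brca1 (chr11:101551956-101552205, minus strand): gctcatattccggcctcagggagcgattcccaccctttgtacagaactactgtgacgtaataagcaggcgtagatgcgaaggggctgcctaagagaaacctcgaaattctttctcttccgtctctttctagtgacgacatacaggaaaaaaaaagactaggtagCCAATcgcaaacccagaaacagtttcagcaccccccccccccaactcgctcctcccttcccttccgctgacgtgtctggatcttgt

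Rad54l (chr4:116123691-116123940, minus strand): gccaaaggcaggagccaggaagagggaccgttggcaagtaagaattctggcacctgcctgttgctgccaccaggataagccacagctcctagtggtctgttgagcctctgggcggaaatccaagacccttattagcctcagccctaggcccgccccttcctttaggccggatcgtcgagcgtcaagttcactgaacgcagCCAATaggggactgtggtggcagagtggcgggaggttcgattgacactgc

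Fancg (chr4:43010302-43010551, minus strand): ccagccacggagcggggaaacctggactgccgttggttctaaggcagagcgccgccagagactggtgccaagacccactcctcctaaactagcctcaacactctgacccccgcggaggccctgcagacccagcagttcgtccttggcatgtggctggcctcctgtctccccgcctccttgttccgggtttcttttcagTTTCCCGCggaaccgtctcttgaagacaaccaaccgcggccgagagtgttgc

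Brca2 (chr5:150522371-150522620, plus strand): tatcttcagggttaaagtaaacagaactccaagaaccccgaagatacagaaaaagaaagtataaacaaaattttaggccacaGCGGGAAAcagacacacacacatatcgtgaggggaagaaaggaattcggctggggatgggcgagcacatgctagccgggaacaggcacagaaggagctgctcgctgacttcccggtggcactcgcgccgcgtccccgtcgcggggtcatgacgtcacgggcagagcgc

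Counted from the start site, the box in Brca1 begins at -86 and that in Rad54l at -50. In Fancg the E2F word begins at -52 and reads along the gene. Brca2 has it at -168, on the opposite strand. These start sites are those of RefSeq and can differ from the start of the gene as counted. Fancg as counted runs to 43010506 on the minus strand, so its E2F word lies inside the gene. The windows of Chek1, Fancc and Fancl lie wholly inside the genes as counted. E2F words were also found in the windows of Bard1, Chek2, Rad51c and Msh6, so the 6 members that hold one come from 5 of the 7 role groups.

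In the comparison of genotypes, 2 of the 33 genes (6.06%) rose in Arid1a cKO, Brca1 and Rad54l, 0 fell and 31 did not pass (edgeR quasi-likelihood test, adjusted over all 19613 genes tested). Over all genes, 1.50% were called higher and 2.46% lower. An unadjusted p under 0.05 was reached by 12 of the 33 members, all 12 with a positive estimate, and by 22% of all genes. All 3 Arid1a cKO libraries lay above all 3 control libraries in 13 members (39.4%, against 13.8% of all genes) and below them in 1, Rad50 (against 15.3%). Of 142 genes tested in the other repair lists described below, 40 (28.2%) were separate upwards and 15 downwards. The estimate was above 0 in 29 members (87.9%), in 63.4% of the other repair genes tested and in 50.8% of all genes. The members had a median log2 fold change of 0.14 and a range of -0.16 to 0.61, where the median of all genes tested was 0.0043. The members' median ranged from 0.14 to 0.23 when 1 library was left out, the highest being without control replicate 2. The 13 separate members had estimates from 0.14 to 0.61. In a mixed tissue, more cells that use these genes and more RNA per cell cannot be told apart.

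**Figure D1:**
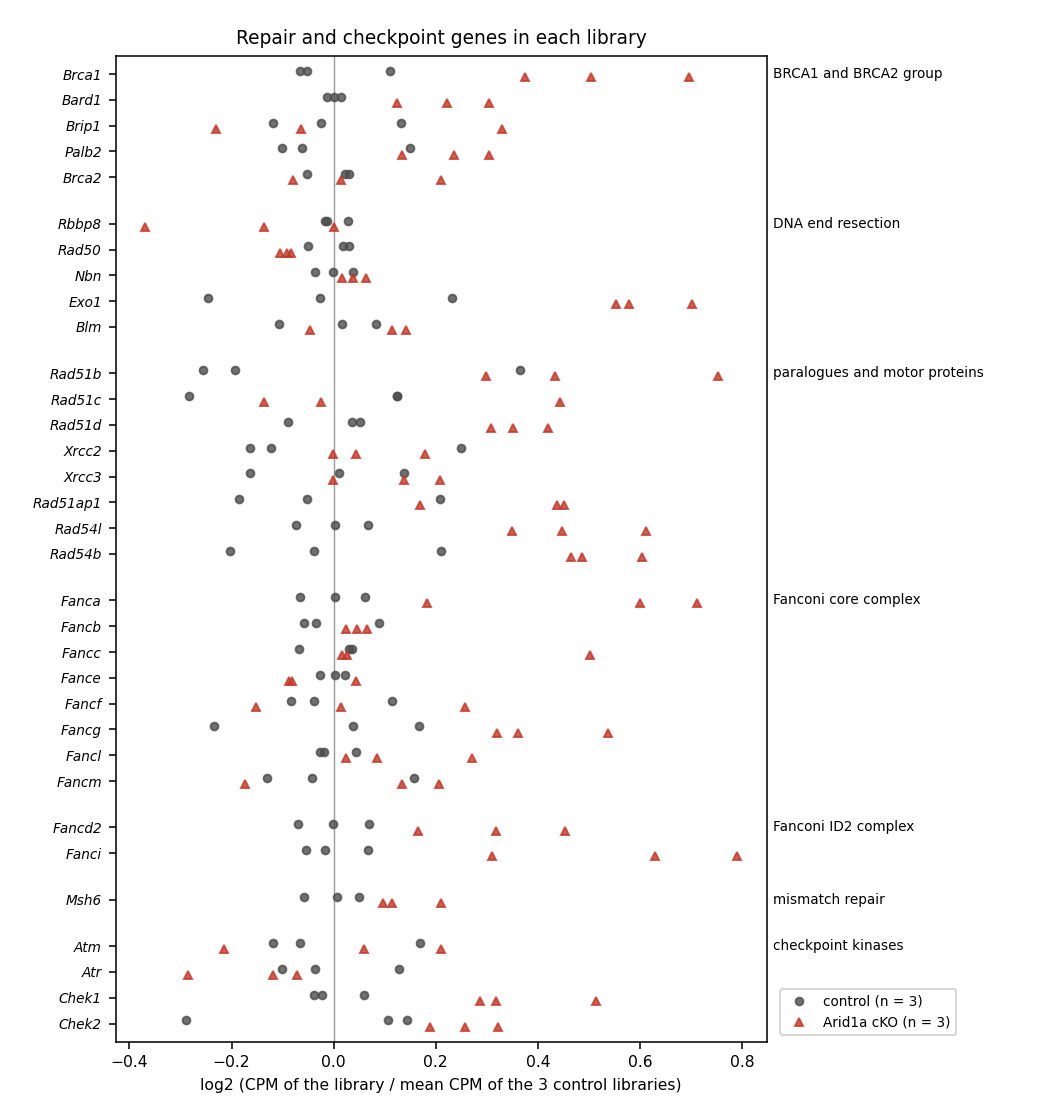
Level of each of the 33 genes in each library, as log2 of its CPM over the mean CPM of the 3 control libraries (circles, control; triangles, Arid1a cKO; n = 3 each), ordered by role. The triangles stand clear to the right of the circles in 13 genes, among them Brca1, Exo1, Rad54l, Rad54b and Fanci, and clear to the left in Rad50.

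Brca1 (chromosome 11, 101488764 to 101551955, minus strand, mm10) encodes the ubiquitin ligase that steers breaks towards recombination. Its level was 19.7, 22.3 and 19.9 CPM in the control libraries (replicates 1, 2 and 3) against 29.3, 33.5 and 26.8 CPM in the Arid1a cKO libraries. The lowest Arid1a cKO library was above the highest control, and the mean rose 1.45-fold, from 20.6 ± 1.43 CPM in control to 29.8 ± 3.37 CPM in Arid1a cKO (SD, n = 3 each), with a log2 fold change of 0.53 with an SE of 0.0995, edgeR adjusted p = 0.0321. Bard1, its obligate partner, was separate too, with 13.3, 13.2 and 13.1 CPM in the controls and 16.3, 15.4 and 14.4 CPM in Arid1a cKO, at a smaller difference that did not pass (log2 fold change of 0.22 with an SE of 0.0838, edgeR adjusted p = 0.181). The 95% interval for Bard1 runs from 0.03 to 0.41. Brip1, the helicase bound by BRCA1, was spread on both sides of the controls, from 9.50 CPM in Arid1a cKO replicate 3 to 14 CPM in replicate 2, with a log2 fold change of 0.03, 95% interval -0.33 to 0.39, edgeR adjusted p = 0.932. Brca2, a mediator of recombination downstream of BRCA1, was near level, with 33.1, 32.9 and 31.3 CPM in the controls and 30.7, 37.5 and 32.8 CPM in Arid1a cKO and a log2 fold change of 0.05 (95% interval -0.14 to 0.25, edgeR adjusted p = 0.764). For Palb2, the link between BRCA1 and BRCA2, the estimate was 0.23 (95% interval -0.08 to 0.53, edgeR adjusted p = 0.358) and the groups overlapped. Of the 5 genes of this step 1 rose (against 1.50% of all genes), and differences between them were not tested.

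Trimming of broken ends held the largest of the 33 estimates and 2 of the 4 negative ones, and 0 of 5 genes passed. Exo1, a nuclease that extends the single strand, had 9.08, 6.52 and 7.60 CPM in the control libraries (replicates 1, 2 and 3) against 11.5, 12.6 and 11.3 CPM in the Arid1a cKO libraries. All Arid1a cKO values exceeded all controls, by a fitted 1.53-fold, and the gene stood just outside the threshold (log2 fold change of 0.61 with an SE of 0.137, edgeR adjusted p = 0.0524). Rad50, part of the complex that first binds an end, was lower in every Arid1a cKO library, with 51.6, 51.2 and 48.8 CPM in the controls and 47, 47.4 and 47.7 CPM in Arid1a cKO, a log2 fold change of -0.09 (95% interval -0.22 to 0.03, edgeR adjusted p = 0.360). Its partner Nbn was at 24.1, 24.7 and 23.5 CPM in the controls and 24.7, 24.4 and 25.2 CPM in Arid1a cKO, with overlapping groups and a log2 fold change of 0.04 (95% interval -0.11 to 0.19, edgeR adjusted p = 0.768). Rbbp8 encodes CtIP, which starts the trimming, and its log2 fold change was -0.16 (95% interval -0.38 to 0.06, edgeR adjusted p = 0.372), with Arid1a cKO replicate 1 inside the control range and replicate 3 lowest at 25.8 CPM. Blm, a helicase for later trimming and for dissolving junctions, had a log2 fold change of 0.07 (95% interval -0.13 to 0.28, edgeR adjusted p = 0.685). For Rad50 and Nbn a change as large as the estimate of Exo1 lies outside both intervals.

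Among the paralogues and motor proteins of strand invasion all 8 estimates were positive (against 50.8% of all genes), and 1 of 8 rose (against 1.50%). Rad54l (chromosome 4, 116094264 to 116123690, minus strand, mm10), a motor protein of strand invasion, had 13.4, 12.9 and 12.2 CPM in the control libraries (replicates 1, 2 and 3) against 17.5, 19.6 and 16.4 CPM in the Arid1a cKO libraries. It rose 1.39-fold with no overlap, from 12.8 ± 0.626 CPM in control to 17.8 ± 1.66 CPM in Arid1a cKO (SD, n = 3 each), with a log2 fold change of 0.47 with an SE of 0.0961, edgeR adjusted p = 0.0396. Its exons share 1184 bases (15.4%) with Lrrc41 on the opposite strand, which was at 59.6 CPM in control and 61.5 CPM in Arid1a cKO (log2 fold change 0.05, edgeR adjusted p = 0.681). The relative Rad54b was also separate, with 8.51, 10.1 and 7.60 CPM in the controls and 12.1, 13.3 and 12.2 CPM in Arid1a cKO, and did not pass (log2 fold change of 0.52 with an SE of 0.125, edgeR adjusted p = 0.0619). Rad54b is uncertain, because 35.8% of its exon bases belong to Fsbp on the same strand too, whose estimate was -0.31 (edgeR adjusted p = 0.430). Rad51d, a subunit of the paralogue complex, had 14.2, 14.1 and 12.9 CPM in the controls and 18.3, 17.5 and 17 CPM in Arid1a cKO, separate and close to the threshold (log2 fold change of 0.36 with an SE of 0.0822, edgeR adjusted p = 0.0548). Rad51ap1, which stimulates strand pairing, overlapped by 1 Arid1a cKO library, replicate 3 at 9.10 CPM against 9.35 CPM in control replicate 2 (log2 fold change of 0.36, 95% interval 0.04 to 0.68, edgeR adjusted p = 0.186). Rad51b was the lowest member of all in CPM, at 1.94, 2.86 and 1.86 CPM in the controls and 3.75, 2.73 and 3 CPM in Arid1a cKO, and its interval is the widest (log2 fold change of 0.51, 95% interval -0.03 to 1.05, edgeR adjusted p = 0.249). Rad51c, Xrcc2 and Xrcc3, the other paralogues, had overlapping groups and estimates of 0.12, 0.08 and 0.12. Their 95% intervals run from -0.35 to 0.59.

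In the Fanconi pathway 0 of 10 genes passed, and 4 were separate upwards (against 13.8% of all genes). Fanci, one of the pair that the core complex marks with ubiquitin, had 6.66, 6.13 and 6.28 CPM in the control libraries (replicates 1, 2 and 3) against 9.84, 11 and 7.88 CPM in the Arid1a cKO libraries. Its controls lay within a narrow band and all Arid1a cKO values were above it, a fitted 1.51-fold difference that did not pass (log2 fold change of 0.59 with an SE of 0.144, edgeR adjusted p = 0.0635). Fanci shares 16% of its exon bases with Polg on the opposite strand, which was at 70.0 and 71.1 CPM in the 2 groups (log2 fold change 0.02). Its partner Fancd2 was separate with a smaller estimate, at 7.87, 8.66 and 8.25 CPM in the controls and 10.3, 11.3 and 9.27 CPM in Arid1a cKO (log2 fold change of 0.32 with an SE of 0.114, edgeR adjusted p = 0.156). In the core complex, Fanca, a scaffold subunit, had 6.44, 7.03 and 6.76 CPM in the controls and 10.2, 11 and 7.65 CPM in Arid1a cKO (log2 fold change of 0.52 with an SE of 0.153, edgeR adjusted p = 0.101). Its replicate 3 lay just above the controls and the other two Arid1a cKO libraries well above. Fanca shares 10.5% of its exon bases with Zfp276 on the opposite strand. Zfp276 was at 24.7 CPM in control and 25.6 CPM in Arid1a cKO (log2 fold change 0.05, edgeR adjusted p = 0.807). Fancg, which binds FANCA, stood at 7.78, 9.39 and 10.3 CPM in the controls and 11.7, 13.3 and 11.4 CPM in Arid1a cKO (log2 fold change of 0.41 with an SE of 0.129, edgeR adjusted p = 0.117). Fancc had 1 Arid1a cKO library apart, replicate 3 at 22.6 CPM, while the other five libraries were between 15.2 and 16.4 CPM (log2 fold change of 0.20, 95% interval -0.12 to 0.52, edgeR adjusted p = 0.441). Fancl, the ubiquitin ligase subunit, had an estimate of 0.13 (95% interval -0.10 to 0.37, edgeR adjusted p = 0.492). Fancb, Fancf and Fancm, the last a DNA translocase, had estimates of 0.05, 0.05 and 0.06. Fance, which bridges the core complex to FANCD2, had an estimate of -0.04 (95% interval -0.22 to 0.14, edgeR adjusted p = 0.808), the 1 negative estimate in the pathway.

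Of the 4 checkpoint kinases 0 passed, and Chek1 and Chek2, at lower CPM than Atm and Atr, had the larger estimates. The contrast in level does not hold per kb of exon. On that scale control means were 2.28 CPM per kb for Chek1, 2.37 for Chek2, 2.34 for Atr and 4.93 for Atm. Chek1, the kinase that ATR activates at stalled forks, had 11, 10.4 and 10.3 CPM in the control libraries (replicates 1, 2 and 3) against 12.9, 15.1 and 13.2 CPM in the Arid1a cKO libraries. Every Arid1a cKO library was above every control, with controls within 10.3 to 11 CPM (log2 fold change of 0.38 with an SE of 0.0987, edgeR adjusted p = 0.0772). Chek2, the kinase downstream of ATM, was separate by a small gap, with 5.83, 7.87 and 7.67 CPM in the controls and 8.51, 8.91 and 8.11 CPM in Arid1a cKO (log2 fold change of 0.26 with an SE of 0.142, edgeR adjusted p = 0.329). Atm itself was at 46.9, 57.3 and 48.6 CPM in the controls and 43.9, 53.1 and 58.9 CPM in Arid1a cKO, with both the lowest and the highest of the 6 values in Arid1a cKO (log2 fold change of 0.03, 95% interval -0.26 to 0.31, edgeR adjusted p = 0.922). Atr had 53.9, 60.5 and 51.6 CPM in the controls and 45.4, 50.9 and 52.6 CPM in Arid1a cKO, a negative estimate with overlapping groups (log2 fold change of -0.16, 95% interval -0.35 to 0.04, edgeR adjusted p = 0.323). Msh6, the mismatch repair subunit, was separate at 43, 46.4 and 45 CPM in the controls and 51.8, 48.5 and 47.9 CPM in Arid1a cKO, a log2 fold change of 0.14 (95% interval -0.0027 to 0.29, edgeR adjusted p = 0.236). The sensors Atm and Atr thus had estimates of 0.03 and -0.16, and the effectors Chek1 and Chek2 0.38 and 0.26. These differences between genes were not tested.

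**Figure D2:**
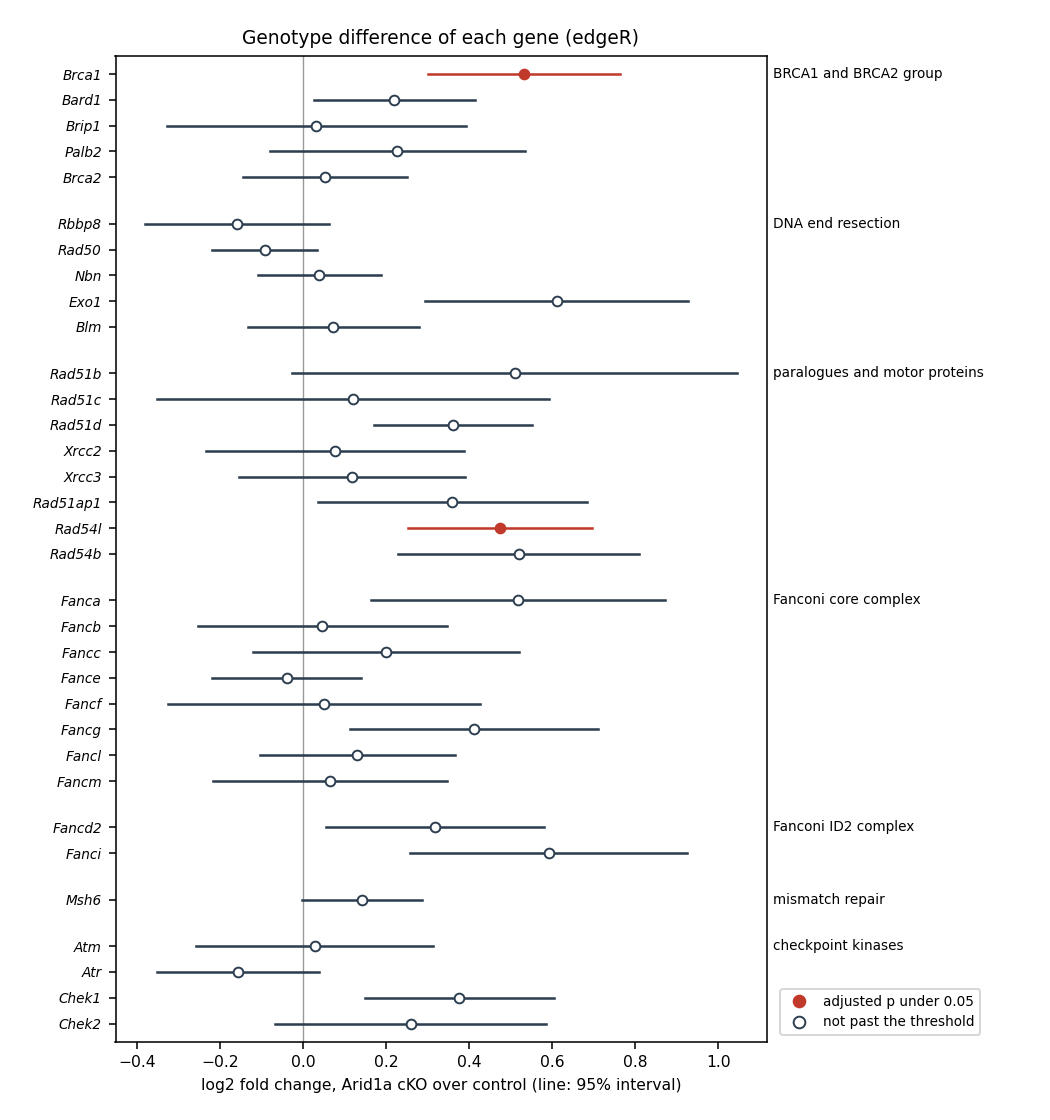
Log2 fold change of each gene, Arid1a cKO over control, from edgeR with its 95% interval (line), ordered by role; filled points have an adjusted p under 0.05. Only Brca1 and Rad54l are filled, and the largest estimate, 0.61, belongs to Exo1, which is not.

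The members with the most counts had estimates near 0. In a split by mean control CPM, which grows with transcript length, chosen after the values were seen, the 7 genes with the highest CPM (Atr, Atm, Rad50, Msh6, Rbbp8, Brca2 and Nbn, 24.1 to 55.3 CPM) had log2 fold changes from -0.16 to 0.14 and none of them an adjusted p under 0.236 by edgeR. The other 26 ranged from -0.04 to 0.61, and 12 of the 13 separate members are among them. Per kb of exon, which allows levels to be compared between genes, Msh6 was the highest in control at 10.3 CPM per kb, followed by Nbn (9.51) and Rad50 (9.40). The split does not carry over to this scale: Rad51d, with an estimate of 0.36, ranks 6 per kb, and Rbbp8, Brca2 and Atr rank 9, 13 and 15. Rad51b (0.592), Palb2 (0.717) and Fanca (0.770) were the lowest. The order is loose: of 32 neighbouring pairs in it, 7 had control ranges that do not overlap. Brca1 moved from 2.42 to 3.50 CPM per kb and Rad54l from 1.67 to 2.31, while Brca2, level with Brca1 in control at 2.38, was at 2.47 in Arid1a cKO. Both Exo1 (0.918 in control) and Fanci (1.10) lie in the lower part of the order.

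**Figure D3:**
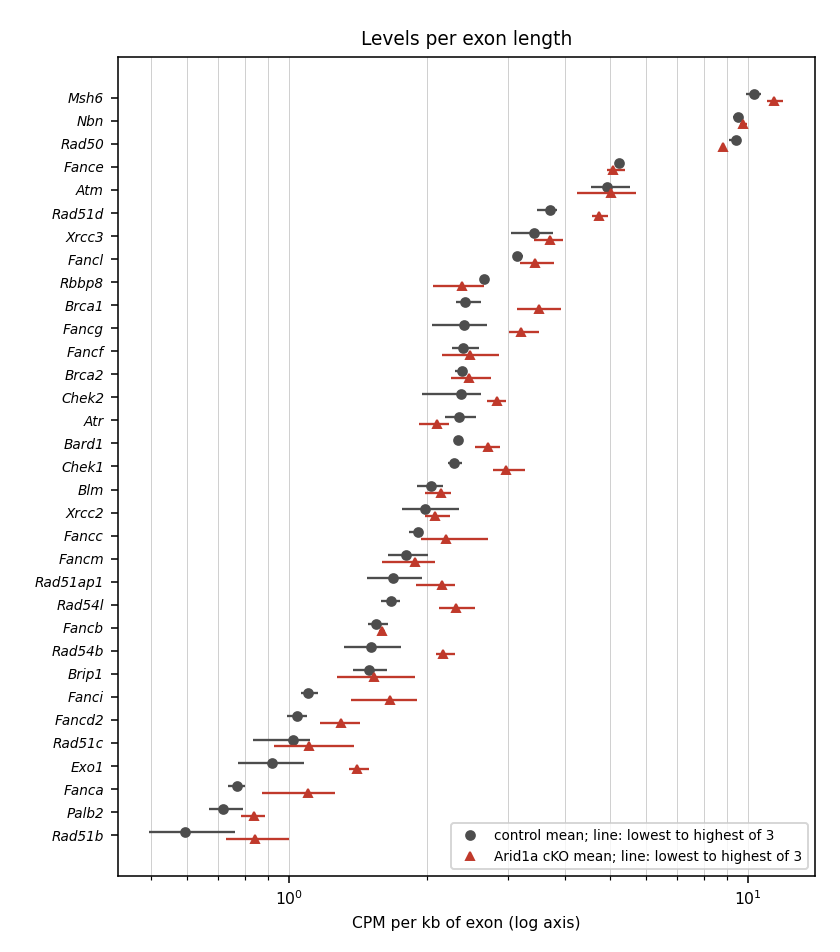
Mean level per kb of exon (log axis) of each gene in control (circles) and Arid1a cKO (triangles), with lines from the lowest to the highest of the 3 libraries, in the order of the control mean. Control means run from 10.3 CPM per kb for Msh6 to 0.592 for Rad51b.

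Other genes of the same and of neighbouring repair pathways gave few calls as well. Separate upwards were from 12% (nucleotide excision repair) to 42.9% (other Fanconi genes) of the genes tested in each list, against 39.4% of the members. Of 35 other homologous recombination genes 0 rose and 0 fell (edgeR; median log2 fold change 0.08). Among them Fignl1, an ATPase of recombination, had an estimate of 0.48 (edgeR adjusted p = 0.112) and Sem1, a partner of BRCA2, of 0.22 (edgeR adjusted p = 0.132), each higher in all Arid1a cKO libraries. In the other Fanconi genes 0 of 14 passed (median 0.05). Rev3l, the catalytic subunit of a translesion polymerase, was lower in every Arid1a cKO library (log2 fold change of -0.26 with an SE of 0.0653, edgeR adjusted p = 0.0691), and Ube2t, the ubiquitin-conjugating enzyme of the pathway, was higher in every one (log2 fold change of 0.57 with an SE of 0.171, edgeR adjusted p = 0.108), as was Cenps (0.49). Of 7 other mismatch repair genes tested 0 passed (median 0.12). Msh3 had an estimate of -0.14 and Pms2 of 0.13, neither past the threshold.

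Timeless, which protects replication forks and helps to activate CHEK1, rose 1.31-fold, from 22.6 ± 1.09 CPM in control to 29.7 ± 2.13 CPM in Arid1a cKO (SD, n = 3 each), with a log2 fold change of 0.39 with an SE of 0.0792, edgeR adjusted p = 0.0391, the 1 gene past the threshold among 21 other checkpoint genes (median 0.09). Rhno1 (log2 fold change of 0.27 with an SE of 0.0630, edgeR adjusted p = 0.0558) and the histone variant gene H2ax, named H2afx in older annotations (log2 fold change of 0.36 with an SE of 0.0874, edgeR adjusted p = 0.0624), did not pass. Base excision and single strand break repair held calls in both directions, 1 rise and 1 fall of 24 (median 0.10). Lig1, the ligase that joins Okazaki fragments, rose 1.40-fold, from 36.7 ± 1.25 CPM in control to 51.6 ± 4.57 CPM in Arid1a cKO (SD, n = 3 each), with a log2 fold change of 0.49 with an SE of 0.0782, edgeR adjusted p = 0.0203. Polb, the gap-filling polymerase of base excision, fell 1.33-fold, from 37.5 ± 1.82 CPM in control to 28.3 ± 1.79 CPM in Arid1a cKO (SD, n = 3 each), with a log2 fold change of -0.41 with an SE of 0.0737, edgeR adjusted p = 0.0294. Fen1, a flap nuclease that also works at the fork, had a log2 fold change of 0.43 with an SE of 0.0999, edgeR adjusted p = 0.0569. End joining, which needs no sister chromatid, had 0 of 17 past the threshold and a median of -0.0032, with Polq at 0.36, Aplf at 0.27 and Dclre1c at -0.33. Nucleotide excision repair had 0 of 25 past the threshold and a median of -0.01, within -0.21 to 0.22, with Uvssa (-0.21), Ercc1 (0.22) and Ccnh (-0.19) at the smallest p.

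**Figure D4:**
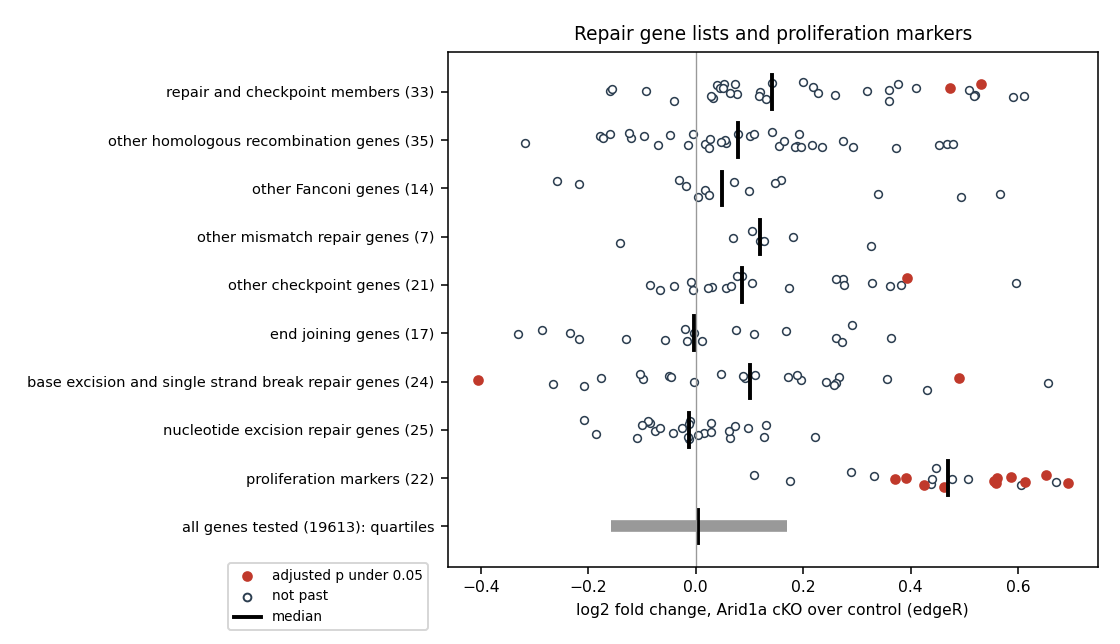
Log2 fold change (Arid1a cKO over control) of each gene tested in the 33 members, the 7 other repair lists and 22 proliferation markers, with the median of each list as a bar; filled points have an edgeR adjusted p under 0.05, and the last row gives the quartiles of all genes tested. The medians lie between -0.01 and 0.14 for the repair lists and at 0.47 for the proliferation markers.

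Markers of dividing cells gave more calls than any of the repair lists. Of 22 such markers 11 rose (against 1.50% of all genes) and 0 fell by edgeR (median 0.47), and 20 of 22 were separate upwards (against 13.8%). Their calls numbered 1 to 9 when 1 library was left out, the fewest without control replicate 3. Summed, they came to 988, 1040.3 and 1009 CPM in control and 1434, 1432 and 1267 CPM in Arid1a cKO. The 33 members summed to 545, 579.9 and 543 CPM in control and 589, 634 and 595 CPM in Arid1a cKO, higher in each Arid1a cKO library than in any control, though Arid1a cKO replicate 1 exceeds control replicate 2 by little. The ratio of the means was 1.09 for the members (1.16 where each gene has equal weight, as a mean of log2 CPM) and 1.36 for the markers. Per 100 CPM of proliferation markers, the members came to 55.2, 55.7 and 53.8 CPM in control and to 41, 44.3 and 47 CPM in Arid1a cKO, lower in all 3. Sums give genes of high CPM the most weight. The 7 members with the highest CPM had estimates from -0.16 to 0.14 and the other 26 from -0.04 to 0.61. An equal-weight value was not computed for the markers. For Brca1 and Rad54l together the same ratio was 3.36, 3.38 and 3.18 CPM in control and 3.26, 3.71 and 3.40 CPM in Arid1a cKO, with overlapping groups. These 2 genes were picked by their rise in the same libraries, so their ratio cannot be set against that of all members. Whether the differences of single members follow from a different number of dividing cells was not tested.

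The paralogues and motor proteins of strand invasion summed to 66.1 to 75.8 CPM in control and 82.9 to 92.2 CPM in Arid1a cKO, and the FANCD2 and FANCI pair to 14.5 to 14.8 CPM in control and 17.2 to 22.3 CPM in Arid1a cKO, both without overlap. For the pair this adds nothing, because each of its genes is separate on its own and their sum could not overlap. The BRCA1 group (79.6 to 85.2 CPM in control and 89.2 to 107 CPM in Arid1a cKO) and the Fanconi core (82.2 to 89.6 CPM in control and 89.7 to 102 CPM in Arid1a cKO) were also separate. The gap in the Fanconi core was narrow, from 89.64 CPM in control replicate 2 to 89.71 CPM in Arid1a cKO replicate 1. In the BRCA1 group Brca1, which was called, had the largest estimate, and Brip1, Palb2 and Brca2 overlapped. End resection (132 to 137 CPM in control and 127 to 136 CPM in Arid1a cKO) and the checkpoint kinases (118 to 136 CPM in control and 111 to 133 CPM in Arid1a cKO) overlapped, and Rad50, Rbbp8, Atm and Atr carry most of their CPM. Differences between the role groups were not tested. Arid1a cKO replicate 2 had the highest of the 6 values in 10 of the 13 separate members and replicate 1 in 3, and replicate 3 was the lowest of its group in 11. The rRNA share was 7.47% in Arid1a cKO replicate 2, 4.12% in replicate 3 and 1.89% in replicate 1, and a link to these ranks was not tested. Without replicate 2 the log2 fold change of Brca1 was 0.44 and that of Rad54l 0.40.

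**Figure D5:**
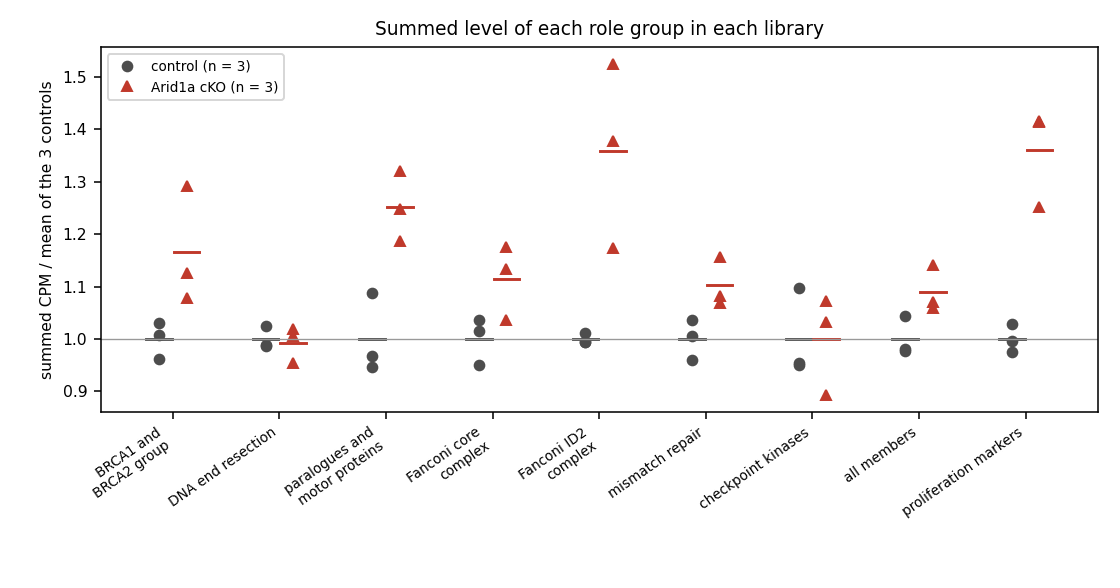
Summed CPM of each role group, of all 33 members and of 22 proliferation markers in each library, divided by the mean of the 3 controls (circles, control; triangles, Arid1a cKO; lines, group means; n = 3 each; the axis does not start at 0). The mean of all members in Arid1a cKO lies at 1.09 times control and that of the markers at 1.36 times.

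Both calls rested on all 6 libraries. Leaving out any 1 library left 0 of the 33 members past the threshold by edgeR, with an adjusted p of 0.0520 to 0.109 for Brca1 and 0.0699 to 0.118 for Rad54l. Their log2 fold changes then stayed between 0.44 and 0.62 and between 0.40 and 0.54. DESeq2, in contrast, called 8 members higher (against 4.47% of all genes) and 0 lower: Brca1 (adjusted p = 0.000543), Rad54l (0.00418), Exo1 (0.00468), Rad54b (0.0122), Fanci (0.0132), Rad51d (0.0231), Chek1 (0.0449) and Fanca (0.0460). All 8 are among the 13 members whose groups do not overlap.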

How the data were processed

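Single-end reads of 75 cycles were made from RNA with an integrity number above 9, per the labels' protocols. Tools named in the submitters' processing notes are STAR 2.6.1d and Partek, with the mouse build mm10. Nothing was assumed of the annotation release, kit and strandedness (not given in the sources used here). The authors deposited estimated counts for 25703 genes, which are whole (within 0.01) in 54% to 57.6% of values. They also deposited a normalized signal for 21456 genes, in which each value equals the count plus 1 divided by 1 factor per library (largest deviation 0.000674%).

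Estimated counts were rounded. edgeR 4.0.16 (R 4.3.3, filterByExpr with minimum count 10, TMM, glmQLFit with robust estimation, glmQLFTest, two-sided) compared the 3 libraries of each genotype without covariates over 19613 genes, with Benjamini-Hochberg adjustment and 0.05 as threshold. SE is the absolute log2 fold change over the square root of F, and 95% intervals use the fit's degrees of freedom. Members, role groups, lists and the rule for named genes (members past the threshold, the smallest p in a role group, negative estimates, and up to 3 genes of each other list) were chosen with earlier results of these data known. Further members were named for groups that do not overlap or by DESeq2, after their values were seen. Alternatives were RLE, upper quartile and library size scaling, DESeq2 1.42.0, limma-voom and limma 3.58.1 on the log2 normalized table (pseudocounts 1, 0.5 and 5), no filter, 1 CPM in all 6 libraries, unrounded counts, robust estimation off, an epithelium covariate, each library left out and, added after seeing the data, rRNA rows left out. A planned permutation test of the summed level was not run, since a score over genes chosen in this way is given without a p-value. Exon lengths are unions from GENCODE M21, where all 33 members have the deposited start and, after subtracting 1 base from the stop, end. Some genes of the other lists are counted there and not reported here by name. H2ax was matched by a RefSeq synonym, and Hrob and Dntt were not matched. Libraries of a group differed by more than sampling noise (chi-square per degree of freedom at least 29.3 within groups). Replicate numbers follow accession order and name libraries only. The count test was tested on simulated data. Python 3.11.15 and matplotlib 3.10.9 drew the figures.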

Additional observations from a re-analysis of the deposited data

How the results depend on the processing

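The count of 2 members higher was 2 or 3 with RLE or library size scaling, limma-voom, no filter, unrounded counts, robust estimation off and the epithelium covariate. It was 4 with upper quartile scaling, with limma on the normalized table at each of the 3 pseudocounts, with 1 CPM in all libraries and with rRNA rows left out (Exo1 and Rad51d joined), and 8 with DESeq2, which called 1905 genes in all against 777. Leaving out each library gave 0 members (0 to 0) and 160 to 532 genes, with fewer samples in each fit, and 0 members were lower under any of these settings. The members' summed level, Arid1a cKO over control, was 1.06 to 1.11 without each library and 1.16 from mean log2 CPM, which gives genes of low level more weight. Estimates near 0 changed sign when 1 library was left out: Brip1 (-0.15 to 0.16), Brca2 (-0.034 to 0.11), Rad51c (-0.078 to 0.24), Atm (-0.060 to 0.14), Fancf (-0.069 to 0.14) and Fancm (-0.014 to 0.17). The lowest of each was without Arid1a cKO replicate 2, except for Atm (without replicate 3). Negative values also came without control replicate 1 for Rad51c (-0.000739) and Atm (-0.024) and without control replicate 3 for Brip1 (-0.018). The rises of proliferation markers numbered 1 to 9 without each library and 20 with DESeq2. With windows of 150 bases before the start, E2F words were in 3 of 25 (12%) members against 399 of 12480 (3.20%) genes tested. The CCAAT box was then in 12 of 25 (48%) members against 4251 of 12480 (34.1%), a smaller gap than in the longer windows. CHR words were in 1 of 25 (4%) against 1145 of 12480 (9.17%). No paired analysis was possible because the labels, though they speak of sequencing 3 pairs, do not say which libraries form one, and sample numbers shared between the groups come to 1. The p-values take no account of such pairs. Members with few counts, such as Rad51b (from 51 counts in a library), have the widest intervals.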
